A study of Mus musculus with 9 samples.

Results

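The AP-1 and Egr immediate early genes were taken as 10 genes, Fos, Fosb, Fosl1, Fosl2, Jun, Junb, Jund, Atf3, Egr1 and Egr2, of 18269 genes tested. Probes were matched to the genes through their RefSeq accessions. The gene name printed on the array design was the same for 9 of the 10 genes, and Jund is listed there as Jund1. The 10 genes had 12 probes, and every probe was well above background in both dyes on all 9 arrays, so all 10 genes passed the filter on dim signals. Fosl2 and Junb had 2 probes each.

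The RNA came from freshly isolated, sorted tumour cells that lacked green fluorescent protein, and 9 two-colour mouse arrays were used. In 5 arrays the cells had been exposed to Fzd8-CRD, a decoy made of the cysteine-rich part of Frizzled 8 that captures secreted Wnt proteins before they reach their receptors. In 4 arrays the cells were controls. Both groups were derived from MMTV-Wnt-1 and MMTV-Her2 tumours, mouse models whose transgenes (a Wnt ligand and a receptor tyrosine kinase) are expressed in mammary cells from the MMTV viral promoter, and each array is labelled with both models, so the models could not be separated. What the controls received, and the age and strain of the mice, are not given in the sources used here. The submitters call the arrays of both groups biological replicates. Cy5 carried the RNA of the cells and Cy3 that of a reference, and each value below is a log2 ratio of Cy5 to Cy3, positive where the cells gave more signal than the reference. The labels disagree on what the reference was, so group differences are taken between arrays for the same gene, and ratios are not read as levels.

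Immediate early genes are transcribed within minutes of a growth factor, stress or wounding signal, without new protein synthesis. Their mRNAs are short-lived, and dissociating a tissue into cells is known to induce them. Fos and Jun family proteins pair through leucine zippers to form AP-1, a dimer that binds DNA and regulates proliferation, invasion and inflammation genes, and Egr proteins are zinc finger factors induced by the same MAP kinase and serum response factor inputs. In the mammary gland AP-1 acts downstream of receptor tyrosine kinases such as Her2, and Wnt proteins can reach Jun through the Jun N-terminal kinase branch.

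Sequence upstream of the start site is shown for 6 of the genes because their short-term induction is known to run through such elements, and so that the letters can be set beside the values below. Each line holds the 150 bases before the start site, 5′ to 3′, from RefSeq on build GRCm38.p6, where entries were found for 8 of the 10 genes. Capitals mark matches on either strand to 6 motifs: TGACG, the core of the site bound by CREB and ATF proteins (CGTCA on the other strand), TGACATCA, the variant AP-1 site known from Jun, TGANTCA, the common AP-1 site, TATAAA, GCGGGGGCG, the Egr site, and the CArG box bound by serum response factor.
Junb, chr8:84978749-84978898, minus strand: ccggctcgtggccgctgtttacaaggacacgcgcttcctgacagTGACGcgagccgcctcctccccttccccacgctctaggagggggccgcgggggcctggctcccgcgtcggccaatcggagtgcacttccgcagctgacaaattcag
Fos, chr12:85473740-85473889, plus strand: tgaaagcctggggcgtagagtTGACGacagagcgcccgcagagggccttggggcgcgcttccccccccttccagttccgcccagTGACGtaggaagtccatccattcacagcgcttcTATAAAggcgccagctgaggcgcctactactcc
Fosb, chr7:19310046-19310195, minus strand: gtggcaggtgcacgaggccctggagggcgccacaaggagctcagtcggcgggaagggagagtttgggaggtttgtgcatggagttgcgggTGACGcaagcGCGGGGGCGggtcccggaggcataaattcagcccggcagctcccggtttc
Jun, chr4:95052223-95052372, minus strand: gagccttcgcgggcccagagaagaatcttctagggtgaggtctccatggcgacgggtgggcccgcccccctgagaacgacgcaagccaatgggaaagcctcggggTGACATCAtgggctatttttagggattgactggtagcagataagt
Egr2, chr10:67537719-67537868, plus strand: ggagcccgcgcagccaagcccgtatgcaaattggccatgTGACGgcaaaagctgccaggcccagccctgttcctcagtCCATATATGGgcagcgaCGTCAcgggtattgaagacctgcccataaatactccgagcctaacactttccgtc
Atf3, chr1:191183334-191183483, minus strand: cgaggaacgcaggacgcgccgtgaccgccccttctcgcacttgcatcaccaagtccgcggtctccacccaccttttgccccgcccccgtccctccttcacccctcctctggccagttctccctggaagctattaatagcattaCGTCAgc

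TGACG was found in 5 of the member genes, at -106 in Junb, at -129 and -66 in Fos, at -60 in Fosb, at -111 and -55 in Egr2 and at -7 in Atf3, counted from the start site to the first base of the match. Of 32851 promoters searched over the same 150 bases, 13.3% held it, as did 7 of the 12 promoter entries of member genes. Egr2 had 5 entries, and the one with the most motif matches was printed, so its matches were favoured by that choice. Counts of member genes and shares of promoters here are in different units. TGACATCA was found at -45 in Jun and in 2.32% of promoters, and TATAAA at -33 in Fos and in 7.57% of promoters. The Egr site was found at -50 in Fosb and in Fosl2, and in 2.09% of promoters. The CArG box was found at -72 in Egr2 and in 0.916% of promoters. TGANTCA was found in 0 of the member genes and in 4.24% of promoters. No printed matches overlapped. A match is a description of the letters, and a missing match says only that those letters are not in this window.

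All 10 genes gave more signal in the cells than in the reference in both groups, with a mean ratio above 0, as did 46.3% of all genes tested. In 7 of the 10 the mean ratio was above 2 in both groups, against 4.01% of all genes. The median ratio of the members was 2.85 on Fzd8-CRD arrays and 2.49 on control arrays, and the median over all genes was 0.035 on Fzd8-CRD arrays and 0.10 on control arrays. Normalization within each array centres the ratios of all genes near 0, and the reference is not known. These ratios are therefore not levels of expression in the cells. Between the groups, 0 of the 10 passed limma's moderated test at a Benjamini-Hochberg adjusted p under 0.05, where 14.3% of all genes tested passed it (6.60% higher and 7.75% lower in Fzd8-CRD cells). At an unadjusted p under 0.05 there were 2, Junb and Jun, where 32.0% of genes had such a p. The difference, Fzd8-CRD minus control, was positive for 4 members (Fos, Junb, Egr1 and Egr2) and negative for 6, although scaling of ratios between arrays made all 10 positive. Their median difference was -0.083, beside -0.072 over all genes, and their median absolute difference was 0.54, beside 0.31 over all genes.

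**Figure D1:**
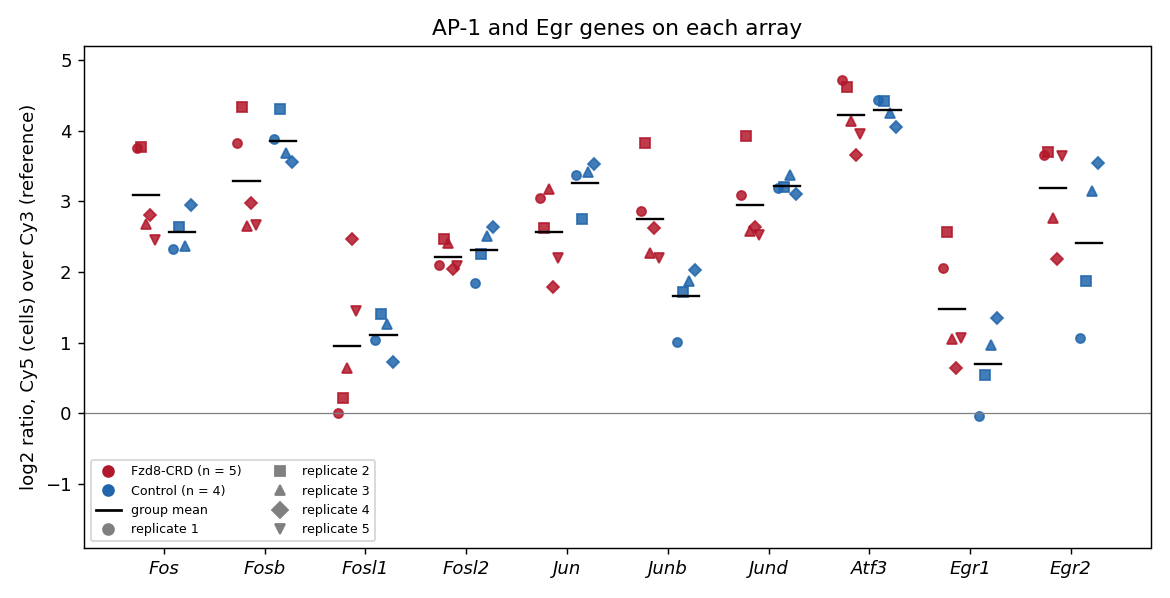
Log2 ratio of Cy5 (cells) to Cy3 (reference) on each array for the 10 genes, with 5 Fzd8-CRD arrays (red) left of 4 control arrays (blue), a marker shape for each replicate and a bar at each group mean. The groups are separated for Junb and overlap for the other 9 genes.

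Junb, the Jun family member that restrains Jun in many settings, had the largest difference of the 10. Its ratio was 2.86, 3.83, 2.26, 2.63 and 2.19 in Fzd8-CRD replicates 1 to 5, against 1.01, 1.71, 1.87 and 2.03 in control replicates 1 to 4. The lowest Fzd8-CRD array lay above the highest control array, and Junb was the single member whose groups did not overlap, a separation found in 19.6% of all genes and, with Fzd8-CRD higher, in 7.90%. The mean was 2.75 ± 0.66 in Fzd8-CRD cells (SD, n = 5) and 1.66 ± 0.45 in control cells (SD, n = 4), a difference of 1.10 (SE 0.34, 95% interval 0.33 to 1.87) with limma's adjusted p = 0.0612, or 2.14-fold with an interval of 1.25-fold to 3.65-fold. The second Junb probe was also higher on every Fzd8-CRD array, with ratios of 3.37, 4.18, 2.78, 2.99 and 2.87 in Fzd8-CRD cells and 1.41, 1.89, 2.42 and 2.64 in control cells. In the fit over 26835 probes, where 14.6% passed, it passed the threshold, with a difference of 1.15 (SE 0.33, limma adjusted p = 0.0471). The probes lie at chr8:87867087-87867146 and chr8:87867049-87867108 on mm8, the build of the array files, and share 22 bases, so they are not independent.

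The reference channel also differed between the groups at Junb. With each dye taken alone after quantile normalization, Cy5 differed by 0.50 (limma adjusted p = 0.181) and the Cy3 reference by -0.44 (limma adjusted p = 0.0146). For the second probe the Cy5 difference was 0.32 and the Cy3 difference -0.71. In the Cy3 reference 59.0% of all genes passed the same threshold, and 7 of the 10 members did, whereas in Cy5 alone 18.9% of genes and 0 members passed. Whether the reference RNA itself differed between slides was not tested.

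Jun, the central Jun family protein and a substrate of the Jun N-terminal kinases, had the opposite sign. Its ratio was 3.05, 2.63, 3.17, 1.79 and 2.20 in Fzd8-CRD replicates 1 to 5, against 3.38, 2.75, 3.42 and 3.53 in control replicates 1 to 4. Fzd8-CRD replicates 4 and 5 were lowest, control replicate 2 was below 2 of the Fzd8-CRD arrays, and the groups overlapped. The mean was 2.57 ± 0.58 in Fzd8-CRD cells and 3.27 ± 0.35 in control cells, a difference of -0.70 (SE 0.30, 95% interval -1.37 to -0.032, limma unadjusted p = 0.0418 and adjusted p = 0.139). In Cy5 alone the difference was -0.87 (limma adjusted p = 0.0805) and in the Cy3 reference -0.22 (limma adjusted p = 0.000411). The Jun probe lies at chr4:94541191-94541250 on mm8.

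Jund, the Jun protein that many cells express without stimulation, had ratios of 3.09, 3.92, 2.58, 2.63 and 2.53 in Fzd8-CRD cells, against 3.19, 3.20, 3.38 and 3.11 in control cells. The 4 control arrays lay close together and within the range of the Fzd8-CRD arrays. The difference was -0.27 (95% interval -0.88 to 0.34, limma adjusted p = 0.511).

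Fos, the partner of Jun in the classical AP-1 dimer, was high on 2 Fzd8-CRD arrays and close to control on the other three. Its ratio was 3.75, 3.76, 2.69, 2.80 and 2.46 in Fzd8-CRD replicates 1 to 5, against 2.33, 2.63, 2.37 and 2.94 in control replicates 1 to 4. Replicates 1 and 2 were above every control array, replicates 3 to 5 were inside the control range, and the difference was 0.52 (SE 0.30, 95% interval -0.15 to 1.20, limma adjusted p = 0.26). In Cy5 alone it was -0.067, beside a reference difference of -0.64 (limma adjusted p = 5.92e-07), so the sign of the ratio difference was not seen in the dye that carries the cells' RNA. The Fos probe lies at chr12:86366053-86366112 on mm8.

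Fosb, a close relative of Fos with a splice form that accumulates under repeated stimulation in the brain, had ratios of 3.82, 4.34, 2.66, 2.98 and 2.67 in Fzd8-CRD cells, against 3.88, 4.31, 3.69 and 3.56 in control cells. Fzd8-CRD replicate 1 lay within the control range and replicate 2 just above it, while Fzd8-CRD replicates 3 to 5 were below every control array. The difference was -0.57 (SE 0.36, 95% interval -1.37 to 0.24, limma adjusted p = 0.301).

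Fosl1, which encodes Fra-1, a Fos protein without a transactivation domain that is linked to invasion in breast cancer, had the widest spread of the 10 among Fzd8-CRD arrays. Its ratio was 0.0097, 0.21, 0.65, 2.47 and 1.44 in Fzd8-CRD replicates 1 to 5, against 1.03, 1.41, 1.27 and 0.73 in control replicates 1 to 4. Replicates 1 to 3 were below every control array, and replicates 4 and 5 above every one, with an SD of 1.01 in Fzd8-CRD cells and 0.30 in control cells. The difference was -0.15 (95% interval -1.18 to 0.88, limma adjusted p = 0.84). Fosl2, which encodes the related Fra-2, had ratios of 2.10, 2.46, 2.41, 2.04 and 2.08 in Fzd8-CRD cells, against 1.85, 2.25, 2.52 and 2.64 in control cells. Its groups overlapped over most of their range, and the difference was -0.096 (95% interval -0.50 to 0.31, limma adjusted p = 0.74) on this probe and -0.19 on its second probe (limma adjusted p = 0.60).

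Atf3, a stress-induced bZIP factor that pairs with Jun proteins, had ratios of 4.72, 4.62, 4.14, 3.65 and 3.95 in Fzd8-CRD cells, against 4.43, 4.42, 4.25 and 4.05 in control cells. Replicates 1 and 2 were above, and replicates 4 and 5 below, every control array. The difference was -0.070 (SE 0.22, 95% interval -0.57 to 0.43, limma adjusted p = 0.852).

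Egr1, a zinc finger factor induced through Elk proteins and serum response factor, had ratios of 2.06, 2.56, 1.05, 0.64 and 1.06 in Fzd8-CRD replicates 1 to 5, against -0.042, 0.55, 0.97 and 1.35 in control replicates 1 to 4. Replicates 1 and 2 were above every control array and the other 3 lay inside the control range. The difference was 0.77 (SE 0.42, 95% interval -0.18 to 1.72, limma adjusted p = 0.241), with 0.53 in Cy5 alone and -0.32 in the Cy3 reference. Egr2, known for its part in myelination and in immune cell anergy, had ratios of 3.66, 3.70, 2.77, 2.18 and 3.64 in Fzd8-CRD cells, against 1.07, 1.87, 3.15 and 3.54 in control cells. Control replicates 1 and 2 were below every Fzd8-CRD array, whereas control replicates 3 and 4 lay within the Fzd8-CRD range. The mean was 3.19 ± 0.69 in Fzd8-CRD cells and 2.41 ± 1.14 in control cells, and the difference of 0.78 (SE 0.53, 95% interval -0.41 to 1.97) had a limma adjusted p of 0.33. The Egr2 probe lies at chr10:66937367-66937426 on mm8.

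**Figure D2:**
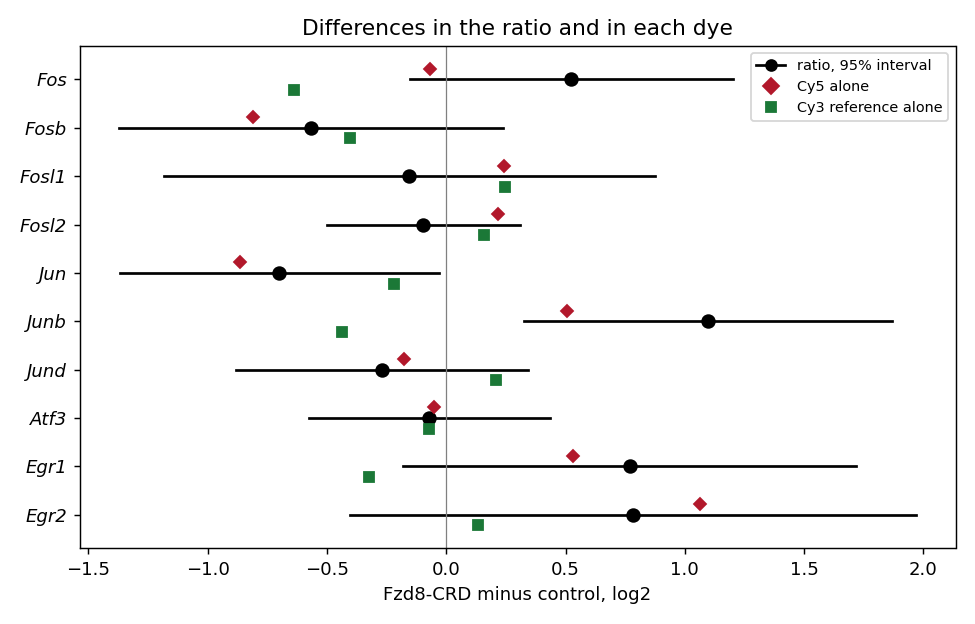
Log2 differences between groups, Fzd8-CRD minus control, for the ratio with its 95% interval (black), for Cy5 alone (red) and for the Cy3 reference alone (green). The intervals of Junb, at 1.10, and Jun, at -0.70, leave out 0, and the Fos ratio difference of 0.52 stands beside a Cy5 difference of -0.067.

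The spread between arrays was many times the measurement error within an array. Fos, Jun and Egr2 were each printed as 10 spots per array, of which 7 to 10 were used. The SD between spots of 1 array had a median of 0.035 for Fos, 0.031 for Jun and 0.032 for Egr2. Between arrays the SD was 0.62, 0.58 and 0.69 for Fos, Jun and Egr2 in Fzd8-CRD cells, or 17.9, 18.7 and 21.4 times the spot SD. In control cells it was 0.28, 0.35 and 1.14, or 8.17, 11.4 and 35.6 times the spot SD. Repeat spots share 1 labelled RNA, so their SD leaves out error made before hybridization.

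**Figure D3:**
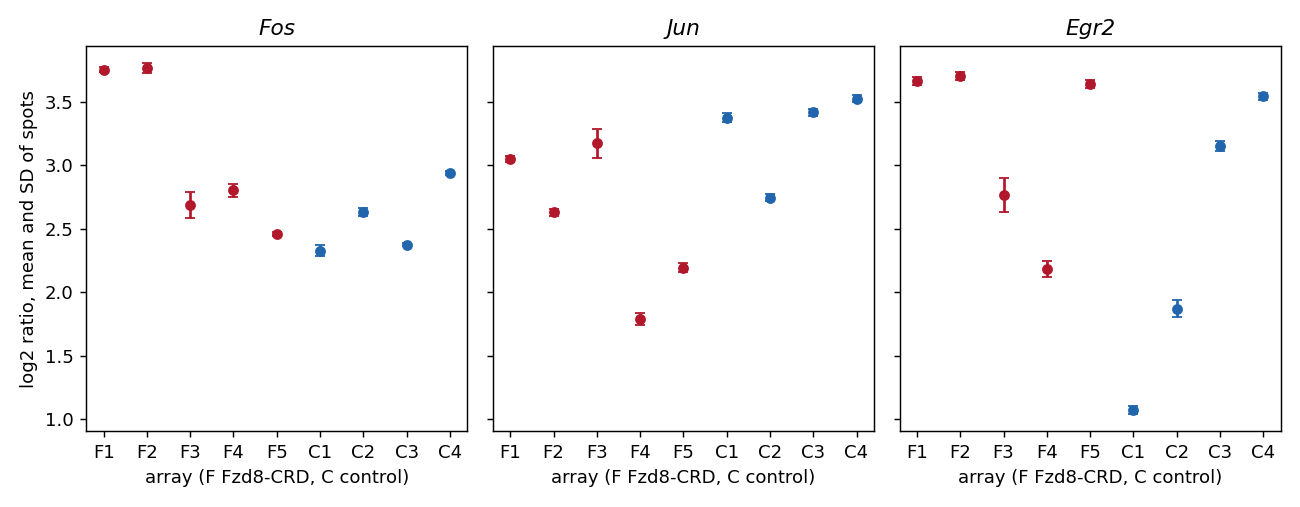
Mean and SD of the replicate spots of Fos, Jun and Egr2 on each array, as log2 ratios, with Fzd8-CRD arrays F1 to F5 (red) left of control arrays C1 to C4 (blue). The bars are short beside the distances between arrays: the median spot SD is 0.031 to 0.035, and the SD between arrays is 0.28 to 1.14.

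The members varied more among the Fzd8-CRD arrays than the median gene did. Their median SD was 0.64 in Fzd8-CRD cells and 0.34 in control cells, where the median over all genes was 0.24 in Fzd8-CRD cells and 0.29 in control cells. On Fzd8-CRD replicate 1, 8 of the 10 members were above their group mean, and on replicate 2, 9 of 10 were. On replicates 3, 4 and 5 the counts were 2, 1 and 2 of 10. The mean deviation was 0.24 and 0.53 on replicates 1 and 2, and -0.23, -0.29 and -0.25 on replicates 3, 4 and 5. Replicates 1 and 2 were also the most alike Fzd8-CRD arrays over all genes, with a correlation of 0.976 where the other pairs of that group had 0.892 to 0.935, so their shared deviation is not read as particular to these 10 genes. They lay on different slides and were scanned on different days. Replicates 1 and 4 shared a slide, and replicate 1 minus replicate 4 ran between 0.064 for Fosl2 and 1.48 for Egr2 in 9 of the 10 genes and was -2.46 for Fosl1. Control replicates 3 and 4 were the most alike controls, with a correlation of 0.979. Among the controls, which shared 1 slide, the mean deviation ran between -0.33 on replicate 1 and 0.21 on replicate 4.

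With each group's mean taken off, the pairs with the highest Pearson correlation over the 9 arrays were Fosb with Jund (0.879), Junb with Egr1 (0.871) and Fos with Egr1 (0.846). All 36 pairs without Fosl1 correlated above 0, with a median of 0.574, and all 9 pairs with Fosl1 were negative, the lowest with Jun (-0.837). This rests on Fzd8-CRD replicates 1 and 2: over the 7 other arrays 18 of the 36 pairs were above 0, with a median of 0.029, and 6 of the 9 pairs with Fosl1 were negative. The points share their arrays, slides and reference, and 9 arrays are few, so these values describe the arrays and carry no test. By the same measure the genes closest to the members' mean were Rnf144a, a ubiquitin ligase gene (0.985), Srcin1, a regulator of Src kinase (0.980), and Adra2a, an adrenergic receptor gene (0.980). Their differences between groups were 0.041, 0.21 and -0.50, and none passed the threshold.

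**Figure D4:**
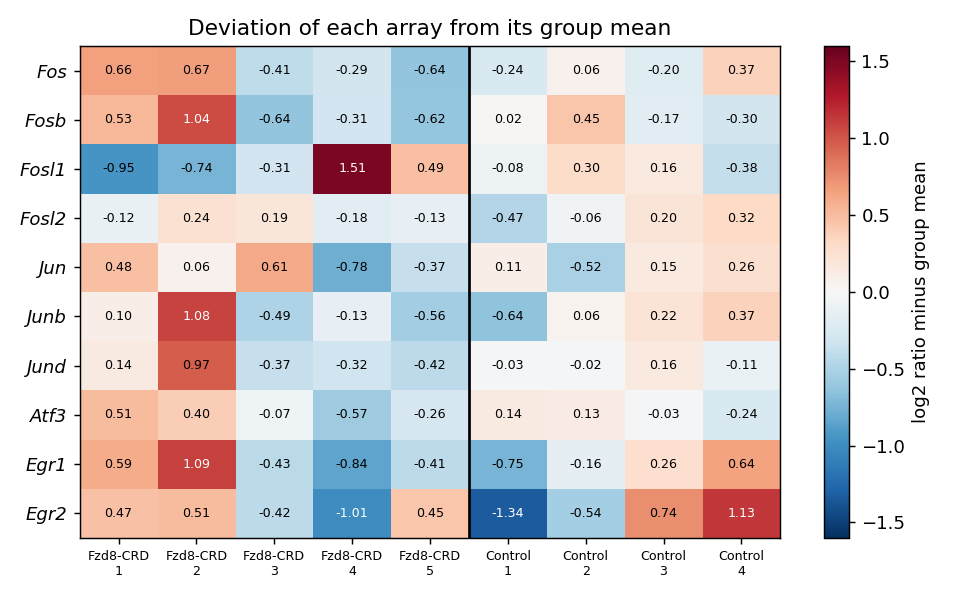
Each array's log2 ratio minus its group mean for the 10 genes, with Fzd8-CRD arrays left of control arrays and red for above the mean. Fzd8-CRD replicates 1 and 2 are red for 8 and 9 of the 10 genes, and Fosl1 runs the other way on both.

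Other facts of the arrays stand beside these values. The share of probes above background in the Cy5 channel was 52.5% to 60.0% on Fzd8-CRD arrays, against 63.8% to 70.8% on control arrays. In the Cy3 reference the share was also lower, at 58.7% to 65.7% on Fzd8-CRD arrays, against 71.8% to 74.9% on control arrays. The Fzd8-CRD arrays lay on 4 slides over 2 scan days and the control arrays on 1 further slide and day, so slide and scan day cannot be told apart from the treatment. Control replicate 2 stood apart, with correlations of 0.618 to 0.737 to the other arrays. Its lymphocyte markers averaged 0.68, against at most -1.36 on the other controls, its erythrocyte markers 6.37 against at most 2.51, its neutrophil markers 4.43 against at most 3.13 and its macrophage markers 1.13 against at most 0.16. Without it 0 members passed, and the difference was 1.12 for Junb (limma adjusted p = 0.0824) and -0.87 for Jun (limma adjusted p = 0.0798).

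Epithelial markers were present on every array: all 8 luminal markers were above background on all 9 arrays and averaged 2.38 to 3.62 on Fzd8-CRD arrays and 3.51 to 3.80 on control arrays, and 5 of 6 basal markers were above background on all arrays. Of the basal markers 1 of 6 rose, Krt5, a basal keratin named after its values were seen, by 0.80 (limma adjusted p = 0.00713, with 0.065 in Cy5 alone and -0.80 in the Cy3 reference), and the basal median difference was 0.64. Of the luminal markers 0 of 8 passed, with a median of -0.58. Markers of other cells differed between the groups. All 8 endothelial markers fell, with a mean ratio of 0.41 to 1.98 on Fzd8-CRD arrays and 2.70 to 3.35 on control arrays, and the log2 of their summed ratios was 3.48 to 5.58 on Fzd8-CRD arrays and 6.51 to 7.11 on control arrays. Of the pericyte markers 3 of 5 fell, of the erythrocyte markers 2 of 3, of the macrophage markers 1 of 10, of the fibroblast markers 1 of 8, of the lymphocyte markers 0 of 10 and of the neutrophil markers 0 of 5. Over all genes tested 6.60% rose and 7.75% fell, so a single call in a marker list is no result about that list. Immediate early genes are inducible in all of these cells, and in bulk RNA fewer cells of a type and less RNA per cell cannot be told apart. The part of these cells in the members' values was not tested.

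Of 47 other immediate early genes, 5 rose and 2 fell, with a median difference of 0.018. That is 14.9% of the list, near the 14.3% of all genes tested (6.60% higher and 7.75% lower), so the count is no result about the list. With median centring, where 613 of all 18269 genes passed, 1 rose and 1 fell. With array weights, where 6000 of all genes passed, 8 rose and 10 fell. Arc, known for its role at synapses, rose: its ratio was 5.64, 5.77, 5.39, 5.82 and 5.67 in Fzd8-CRD cells, against 4.04, 3.93, 4.76 and 4.68 in control cells, a difference of 1.31 (SE 0.20, limma adjusted p = 0.00545). Socs3, a feedback inhibitor of cytokine receptors, rose by 1.17 (SE 0.26, limma adjusted p = 0.0192). Klf6, a zinc finger factor, fell: its ratio was 3.19, 3.12, 2.87, 3.13 and 2.03 in Fzd8-CRD cells, against 4.55, 4.28, 4.04 and 3.93 in control cells, a difference of -1.33 (SE 0.25, limma adjusted p = 0.0111) that was 0.14 with ratios scaled between arrays. The groups of Arc, Socs3 and Klf6 did not overlap, and each kept its call without any 1 array. With median centring the adjusted p was 0.0847 for Arc and 0.111 for Socs3, and with scaling between arrays 0.0729 and 0.0501. With the most alike pair of arrays in each group averaged it was 0.0715 for Socs3 and 0.0548 for Klf6.

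The remaining 4 calls in that list were chosen for naming after their values were seen. Cebpb and Cebpd, bZIP factors of the acute phase response, rose by 0.84 and 0.72 (limma adjusted p = 0.0243 and 0.0202), and Gadd45b, a stress sensor that activates p38 signalling, by 0.75 (limma adjusted p = 0.0255). Nfkbiz, an inducible regulator of NF-kappaB, fell by 0.61 with a limma adjusted p of 0.04998. Each of these depended on single arrays. For Cebpb the adjusted p was 0.0543 with Fzd8-CRD replicate 4 left out and 0.0505 with control replicate 1 left out. For Cebpd it was 0.0561 without control replicate 3 and 0.0565 without control replicate 4. For Gadd45b it was 0.0634, 0.0568 and 0.0546 without Fzd8-CRD replicate 1, Fzd8-CRD replicate 5 or control replicate 1. For Nfkbiz it lay between 0.0513 and 0.102 when any array other than Fzd8-CRD replicate 3 was left out, and the difference was 0.39 with ratios scaled between arrays. On its second probe Gadd45b differed by 0.16 (limma adjusted p = 0.516), and with the mean of its probes by 0.46 (limma adjusted p = 0.0686). The members of the list with the largest differences short of the threshold were Nr4a2, an orphan nuclear receptor gene (1.27, limma adjusted p = 0.0762), and Ifrd1 (-0.99, limma adjusted p = 0.0544). A second Ifrd1 probe had the opposite sign, at 0.38 (limma adjusted p = 0.294).

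Genes known as AP-1 targets gave 0 rises and 4 falls among 24 tested, with a median difference of -0.21. The 4 are 16.7% of the list, beside 14.3% of all genes. The median was -0.86 from the log ratio of the scanner, -0.87 from the deposited values, and -0.012 over probes above background on all arrays. Il6, an inflammatory cytokine gene, had ratios of 2.84, 1.51, 1.59, 1.63 and 1.75 in Fzd8-CRD cells, against 4.58, 4.82, 3.84 and 4.07 in control cells. Every Fzd8-CRD array was below every control array, and the gene fell by 2.46 (SE 0.31, limma adjusted p = 0.00352), although with ratios scaled between arrays the difference was -1.07 (limma adjusted p = 0.131). Plau, the urokinase gene of plasminogen activation, fell by 1.72 (SE 0.18, limma adjusted p = 0.00195) on its brightest probe, with ratios of -0.43 to 0.14 in Fzd8-CRD cells and 1.16 to 1.81 in control cells. Its second probe differed by -0.33 (limma adjusted p = 0.109). Sprr1a, a cornified envelope gene, fell by 1.43 (SE 0.33, limma adjusted p = 0.0206, and 0.0746 with the most alike arrays averaged). Ccl2, a monocyte chemokine gene named after its values were seen, fell by 1.16 (limma adjusted p = 0.0319), a call that was lost when Fzd8-CRD replicate 2 or 4 or control replicate 2, 3 or 4 was left out (adjusted p between 0.0525 and 0.0689). Without control replicate 2 the list had 1 rise and 3 falls. Mmp3, a stromelysin gene, differed by -2.04 (limma adjusted p = 0.0616) and Il1b by -1.68 (limma adjusted p = 0.172). Plau, Il6 and Ccl2 are also made by stromal and endothelial cells. As given above, all 8 endothelial markers fell, 3 of 5 pericyte markers and 1 of 8 fibroblast markers. The part of those cells was not tested.

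Of 13 MAP kinase feedback genes tested, 2 rose and 0 fell, with a median difference of 0.41. The 2 are 15.4% of the list, near the 14.3% of all genes. With the mean of each gene's probes 0 rose and the median was 0.22. With the most alike arrays averaged, where far fewer of all genes passed than as reported, 0 rose. Both rises were on 1 probe of several. Dusp16, a phosphatase of the Jun N-terminal kinases and p38, rose by 1.01 (SE 0.15, limma adjusted p = 0.00584) on its brightest probe, while its second probe differed by -1.10 (limma adjusted p = 0.0109), and the mean of its probes by -0.044. Spred1, an inhibitor of Ras to Raf signalling, rose by 0.84 (SE 0.19, limma adjusted p = 0.0195), with -0.14 and 0.22 on its other probes. Dusp6, the phosphatase of ERK, differed by 0.88 (limma adjusted p = 0.17), with its highest ratios, 3.44 and 3.60, on Fzd8-CRD replicates 1 and 2. Spred2 differed by 0.86 (limma adjusted p = 0.0551).

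Among 16 other bZIP genes that pair with or compete with AP-1, 1 rose and 3 fell, with a median difference of 0.020, where 6.60% of all genes rose and 7.75% fell. With median centring, where 613 of all 18269 genes passed, 0 rose and 0 fell. With the most alike arrays averaged, where far fewer of all genes passed than as reported, 0 rose and 0 fell. Crem, a cAMP-responsive factor gene, had ratios of 2.66, 2.57, 2.83, 2.94 and 2.50 in Fzd8-CRD cells, against 3.87, 4.26, 3.29 and 3.37 in control cells. The groups did not overlap, and Crem fell by 1.00 (SE 0.21, limma adjusted p = 0.0152), with -0.84 to -1.29 over its 5 probes, although with ratios scaled between arrays the difference was 0.47. With the scanner's log ratio and the deposited values Crem differed by -0.54 (limma adjusted p = 0.185 and 0.187), and its adjusted p was 0.0533 with median centring and 0.059 with the most alike arrays averaged. Batf3, a Jun partner of dendritic and T cells, fell by 0.72 (limma adjusted p = 0.0195, and 0.0503 and 0.0579 without Fzd8-CRD replicate 1 or control replicate 3). Atf4, the factor of the amino acid response, fell by 0.80 (limma adjusted p = 0.02, and 0.0515 and 0.0504 without Fzd8-CRD replicate 1 or control replicate 4). Batf3 and Atf4 each lost the call under 8 of the 22 other processing choices, with an adjusted p of 0.251 and 0.262 with median centring and 0.111 and 0.0952 in Cy5 alone. Nfe2l2, the factor of the oxidative stress response, rose by 1.18 (limma adjusted p = 0.02, 0.0506 without control replicate 3 and 0.125 with median centring), with 0.61 to 1.18 over its 4 probes, and was named after its value was seen. Ddit3 differed by -0.43 and Jdp2 by -0.29, both short of the threshold.

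Of the 26 upstream kinases and factors reported here, 1 rose and 0 fell, with a median difference of 0.0076. That is 3.85% of the list, beside 14.3% of all genes tested. With array weights, where 6000 of 18269 genes passed, 4 rose and 5 fell. Braf, a kinase above ERK, rose by 0.58 (limma adjusted p = 0.00965) on its brightest probe, with -0.14 to 1.08 over its 6 probes, and its adjusted p was 0.151 with median centring and 0.0876 with the mean of its probes. Mapk8, a Jun N-terminal kinase gene, differed by 0.88 and Rps6ka1 by 0.76 on their brightest probes, short of the threshold. The other Mapk8 probes differed by -0.45 and -0.24, and the other Rps6ka1 probe by -0.49. Of 16 heat shock genes, which are induced by the same stresses as Atf3, 0 rose and 0 fell in limma's test. Over all genes 14.3% passed that test. Of the 16, 0 had an unadjusted p under 0.05 (32.0% of all genes had one), and the median difference was -0.23. With the mean of each gene's probes, where 2613 of 18269 genes passed, 3 fell. With array weights, where 6000 passed, 1 rose and 2 fell. Hsph1 differed by -0.61 (limma adjusted p = 0.481) and Dnaja1 by -0.56 (limma adjusted p = 0.319).

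The differences of the members were recomputed under 22 other processing choices. Junb, Egr1 and Egr2 were higher in Fzd8-CRD cells under all 22, and Fos under 21. Junb passed the threshold under 6 of the 22, where its difference lay between 0.88 and 1.998, and under none that left out 1 array. The scanner's log ratio and the deposited values, which are nearly the same values, both count among the 6 of Junb. Jun passed under 2, weighting of arrays and slide as a random block, with differences of -0.80 and -0.71. Under these 2 choices more of all genes passed than the 2621 as reported, with 6000 of 18269 under array weights. Slide as a random block used a consensus correlation of -0.17. Scaling of ratios between arrays made all 10 differences positive, with 1.72 for Fos, because it multiplied the ratios by 0.885 to 2.03 on Fzd8-CRD arrays and by 0.735 to 0.821 on control arrays, and these genes have high ratios.

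**Figure D5:**
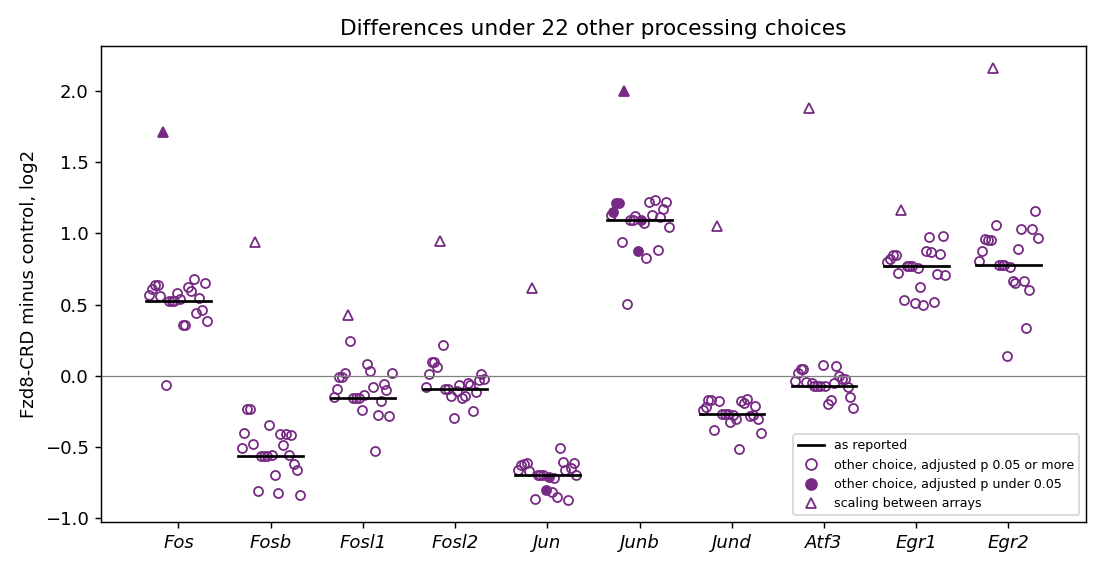
Log2 difference for each gene, Fzd8-CRD minus control, as reported (bar) and under 22 other processing choices (circles, with triangles for scaling between arrays and filled symbols for an adjusted p under 0.05). Junb is above 0 under all 22 and filled under 6, and scaling between arrays moves every gene upward.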

How the data were processed

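Expression was measured on 9 two-colour Agilent mouse arrays, and groups were taken from each array's treatment label. Replicate numbers follow accession order and do not pair arrays. The treatment protocol names Fzd8-CRD for all 9 arrays, the controls included. The genes and lists were chosen with earlier results of these data known, so counts over them are descriptions.

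The deposited scanner files hold a linear intensity and a local background for every spot and dye. Per the file headers, Agilent Feature Extraction 9.5.3.1 made them and also gives its own background-corrected log10 ratio, Cy5 over Cy3. The submitters' deposited value table gives linear ratio values, whose log2 values correlated at 0.999995 or more with the scanner's log ratio, which settles scale and direction. Its median ratio was 0.833 to 0.954 per array, and 4368 to 9418 probes per array were empty in it.

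Each array held 45018 spots, 1639 of them controls. Background was corrected by normexp (offset 50) and ratios by loess within each array, with R 4.3.3 and its packages limma (3.58.1) and data.table (1.17.8). Over all arrays 2224 outlier spots were left out, and 0 spots were saturated. The offset understates differences of dim genes. Spots of a probe were averaged (41174 probes), the 26835 probes (65.2%) that passed the scanner's background test in Cy5 on 4 or more arrays were kept, and a gene was represented by its brightest probe, as 6125 genes had several. Probes were named by accession (23374), current symbol (6733) or synonym (2919), and 8148 kept the name in the file.

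Differences between groups were tested with limma's moderated statistics over all 18269 genes, with Benjamini-Hochberg adjustment and a threshold of 0.05, and Cy5 and Cy3 were also tested separately after quantile normalization. On simulated data, 8%, 42% and 84% of genes changed by 0.5, 1 and 2 log2 units were recovered in this comparison over 18269 genes, and 58% of those changed by -1, with 13 false calls. The simulation changed 200 genes, whereas 2621 genes passed in the data. The members' median SD on Fzd8-CRD arrays was 0.64, beside 0.24 over all genes. These shares therefore do not give the recovery of the members. The text names every member, from each further list the 3 genes with the smallest p past the threshold and the 2 with the largest difference short of it, and the 3 genes most like the members' mean. Cebpb, Cebpd, Gadd45b, Nfkbiz, Ccl2, Nfe2l2 and Krt5 fell outside that rule and were chosen after their values were seen. Other settings tried were the background correction, the scanner's ratio, the submitters' values, centring, scaling, Cy5 alone, the dim-probe filter, averaging of probes, array weights, slide, and leaving out arrays. Of the listed genes, 1 is not reported here and was left out of its list's counts. The number of arrays limits the precision.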

Additional observations from a re-analysis of the deposited data

How the results depend on the processing

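Of 18269 genes, 2621 passed the threshold as reported. The count was 613 with median centring, 1602 with scaling between arrays, 6000 with array weights, 5502 with slide as a random block (consensus correlation -0.17), 338 with the closest pairs of arrays averaged, and 1340 to 3093 when 1 array was left out, where it was 1508 without Fzd8-CRD replicate 1, 1340 without control replicate 3 and 1617 without control replicate 4. Array weights gave control replicate 2 a weight of 0.16 and control replicate 3 a weight of 4.11. The share of calls that were higher in Fzd8-CRD cells was 46.0% as reported, 56.1% with the scanner's log ratio and 57.2% with the deposited values. Of the members, 0 passed as reported and 0 to 0 when 1 array was left out. Junb alone passed (1 member) with no background correction at 1.15, and from the scanner's log ratio and the deposited values at 1.22. With scaling 2 passed, Fos at 1.72 and Junb at 1.998, and with array weights and slide as a random block 2 passed, Jun and Junb.

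Signs turned as follows, with adjusted p of 0.126 or more in each member. Fosl2 was 0.0099 and Atf3 0.016 without background correction, and 0.094 and 0.045 with the scanner's log ratio and with the deposited values. Fosl1 was 0.017 and Fosl2 0.063 with median centring. With scaling Fosb was 0.94, Fosl1 0.42, Fosl2 0.95, Jun 0.62, Jund 1.05, Atf3 1.88, Crem 0.47, Klf6 0.14 and Nfkbiz 0.39. In Cy5 alone Fos was -0.067, Fosl1 0.24 and Fosl2 0.22. Dusp16 was -0.044 with the mean of its probes, and Atf3 0.073 with array weights. Fosl1 was 0.082 without Fzd8-CRD replicate 1, 0.031 without Fzd8-CRD replicate 2 and 0.020 with the closest pairs averaged. Atf3 was 0.071 without Fzd8-CRD replicate 4, and Fosl2 0.013 without control replicate 4. With 1 array left out, the lowest and highest values were -0.53 and 0.082 for Fosl1, -0.25 and 0.013 for Fosl2 and -0.20 and 0.071 for Atf3. The cause was not tested, apart from scaling, which multiplies ratios by a larger factor on Fzd8-CRD arrays. Differences of Junb, Egr1 and Egr2 kept their sign under all 22 alternatives.

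No paired analysis was possible because replicate numbers follow accession order and the labels pair no arrays across the groups. All members were well above background in both dyes on every array. Whether low or high signal compressed their ratios was not tested. Slide, scan day and treatment cannot be told apart. The reference channel differed between the groups for 7 of the 10 members and for 59.0% of all genes tested, so that count is not particular to the members.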
